A study of Homo sapiens with 18 samples.

Results

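Gene expression in CP70 was compared with that in PEA2 and PEO4, the 3 platinum-resistant ovarian cancer lines of the series, to see which differences between CP70 and the serous lines are present among resistant lines alone. The comparison used 9 of the 18 RNA-seq libraries, 3 replicates of each line, with the same weight given to PEA2 and to PEO4. CP70 is a resistant derivative of A2780, selected in vitro, which the labels describe as endometrial/ovarian. PEA2 was derived from a patient with high-grade serous ovarian cancer after relapse with resistant disease, and PEO4 from another such patient once clinical resistance had developed. The word serous comes from the study's text and not from the labels. All lines were untreated and were cultured in RPMI-1640 with glutamine and fetal bovine serum, and rRNA-depleted total RNA was sequenced with a strand-directional kit. The remaining 9 libraries came from the sensitive counterparts A2780, PEA1 and PEO1 and served as a second comparison. CP70 is 1 line set against 2, so histotype, patient of origin and selection in vitro or in a patient cannot be told apart. Whether replicate libraries came from separate cultures is not given in the sources used here, and the p-values measure only the spread between these libraries.

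High-grade serous carcinoma is an epithelial tumour of Müllerian type. Its cells are commonly held together by E-cadherin, claudins and desmosomes, contain simple keratins, and transcribe the lineage factor PAX8 and the surface mucin MUC16 (the CA-125 antigen). Factors such as GRHL2 and the splicing regulators ESRP1 and ESRP2 maintain the epithelial state, and ZEB1, a repressor that binds E-box DNA, acts against it.

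Each deposited value is a log2 CPM (reads scaled to a common library size), and whole reads were recovered from every value. The reads on listed genes ran from 3400531 to 5479562 per library in CP70, from 2130465 to 4027657 in PEA2 and from 2516688 to 2966814 in PEO4. In the text, CPM is given without the 0.5 reads that the authors added, so that 0 CPM means that no read was seen. A line with no reads in its 3 libraries may still hold up to 3 reads' worth, which is 0.212 CPM in CP70, 0.398 CPM in PEA2 and 0.359 CPM in PEO4. Such limits and the intervals below cover counting error only. Replicates differed by more than sampling noise (chi-square of 1.77 to 8.0 per degree of freedom), and FN1 alone took 3.29% to 4.20% of the reads of each PEA2 library.

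The lines were first checked against cell type markers. The summed level of 9 epithelial markers was 90.5 to 96.2 CPM in CP70, 4070 to 4340 CPM in PEA2 and 3560 to 3990 CPM in PEO4. KRT18 and EPCAM made up most of the CP70 sum, and CDH1 had no reads there. The sum of 8 Müllerian markers was 0.789 to 1.9 CPM in CP70, 527 to 669 CPM in PEA2 and 3160 to 5000 CPM in PEO4. WT1, SOX17, EMX2 and ESR1 had no reads in CP70, so the defining Müllerian markers were at or near 0 in that line. SOX17 also had no reads in PEO4, and EMX2 had none in PEA2. Of the lists for other cell types, 8 of 12 fibroblast genes were in the table, and they summed to 1420 to 1530 CPM in CP70, 12.7 to 18.3 CPM in PEA2 and 254 to 256 CPM in PEO4. Only 2 of 17 leukocyte genes were in the table (PTPRC at 22.1 CPM in PEA2, 0.309 CPM in CP70 and 0 in PEO4), and 3 of 12 endothelial genes. The 6 of 10 mesothelial genes in the table, which include WT1 and MSLN, summed to 6.84 to 7.11 CPM in CP70, 355 to 414 CPM in PEA2 and 610 to 670 CPM in PEO4. By the rule used below, 1 leukocyte gene (LAPTM5) and 4 mesothelial genes (WT1, MSLN, LRRN4 and PDPN) were lower in CP70, as were the endothelial genes CDH5 and ERG, while EGFL7 was higher. CDH5 and ERG each rest on 1 serous line, the other having 1 read or none. The part of other cell types in the differences below was not tested.

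Among the 12853 genes in the table, far more were lower in CP70 than higher. A call required |log2FC| above 2 together with limma FDR below 0.05 over the 12853 genes. With equal weight to the serous lines, 703 genes (5.47%) were called higher and 1964 (15.3%) lower in CP70. A gene is described here as a shared difference if it was called in this way and also passed the FDR, on the same side, against PEA2 and against PEO4 taken alone. That left 602 genes higher in CP70 (4.68% of all) and 1685 lower (13.1%). With each line taken as 1 sample, so that 1 line stood against 2, the same rule left 1 gene higher and 85 lower. In 2247 of the 2287 shared differences between libraries the CP70 libraries did not overlap any serous library, whereas among all genes 51.4% did not overlap on either side. Taken singly, 2860 genes (22.3%) were called between CP70 and PEA2 and 2746 (21.4%) between CP70 and PEO4, against 2155 (16.8%) between the 2 serous lines. Hence CP70 stood further from each serous line than they did from each other. The root mean square difference of log2 means over all genes was 2.61 for CP70 and PEA2, 2.5 for CP70 and PEO4, and 1.92 for PEA2 and PEO4.

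The excess of lower genes depends on how libraries are scaled. The median log2FC of all genes was -0.0681 as deposited, 0.206 after quantile normalization and 0.194 with plain CPM. Quantile normalization gave 917 higher and 1147 lower shared differences, so that 44.4% instead of 26.3% were higher, and 1749 genes were shared differences under both. Many of the lower genes were barely read in CP70. Of the 1685, 430 had no read in any CP70 library and 730 had at most 3, while 629 had more than 3 reads in every library of all 3 lines. The median log2FC was -4.64 for the lower and 3.39 for the higher genes, or -4.41 and 3.3 with unread lines set at 3 reads. Because CP70 was sequenced most deeply, a gene without a single read in CP70 and PEA2 still differed by -0.93 on the deposited log2 scale. In 106 of the lower genes CP70 and a serous line both had at most 3 reads, and without such comparisons 1579 remained.

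**Figure D1:**
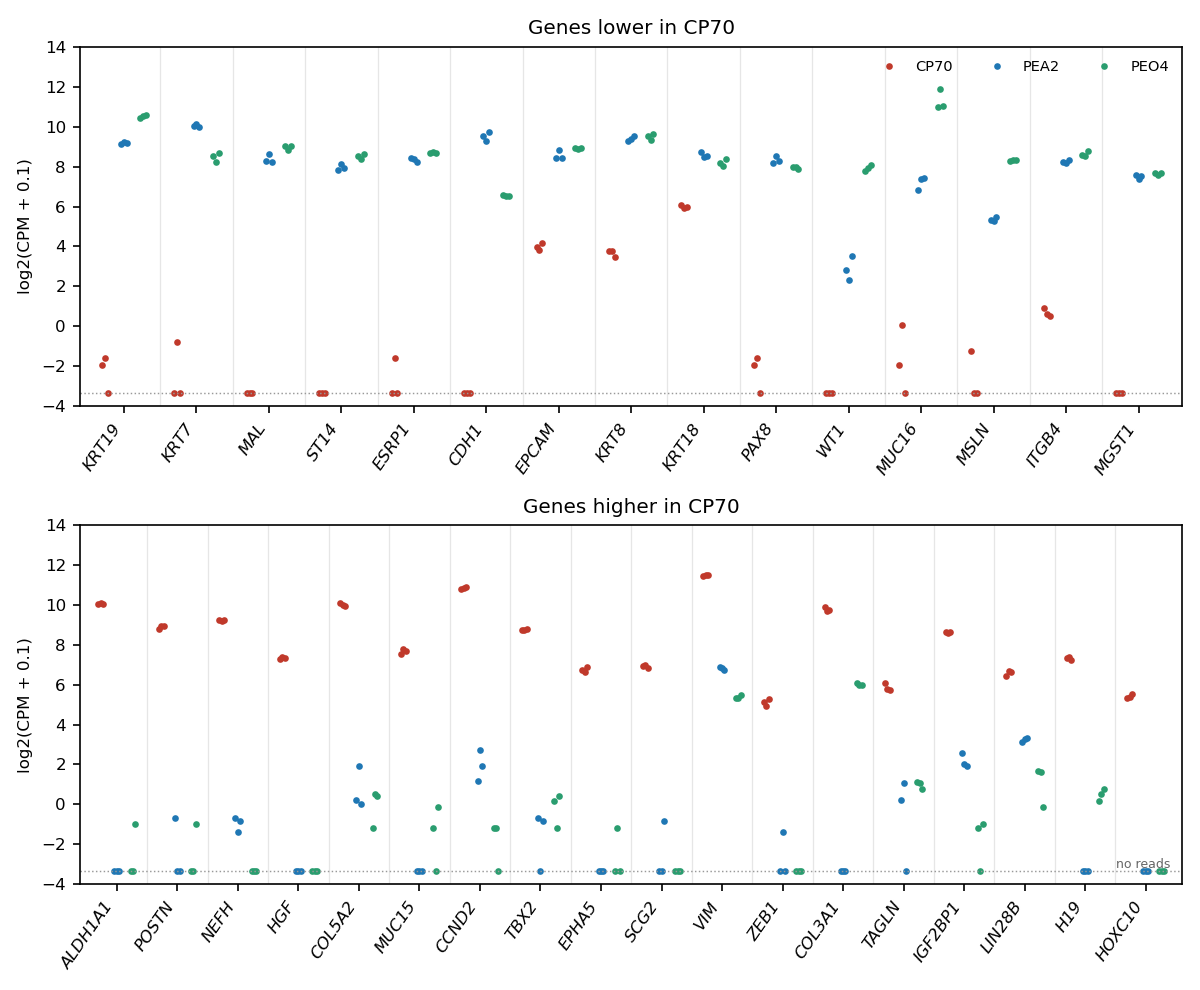
Level of 33 named genes in each library of CP70, PEA2 and PEO4, as log2(CPM + 0.1), with genes lower in CP70 above and genes higher in CP70 below. Each point is 1 library, and points on the dotted line had no reads. For every gene drawn, the 3 CP70 libraries lie apart from the 6 serous libraries.

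Genes of epithelial cells were lower in CP70. Of 37 measured genes of cell junctions, keratins and epithelial surface proteins, 33 (89.2%) were shared differences lower in CP70 and none was higher. Over all genes 13.1% were lower and 4.68% higher, which is the background for each list below. The median log2FC was -5.99 for the list and -0.0681 for all genes. ST14, the membrane protease matriptase (chr11:130029677-130080257 in hg19), had no reads in CP70, 227, 283 and 247 CPM in PEA2 and 369, 332 and 397 CPM in PEO4. It was thus at least 1220-fold lower than in PEA2 and at least 1710-fold lower than in PEO4 (limma FDR 1.59e-16). For CDH1, which encodes E-cadherin (chr16:68771195-68869440), CP70 had no reads, PEA2 had 755, 630 and 854 CPM and PEO4 had 94.8, 92.1 and 93.7 CPM. Neither of these genes overlapped between CP70 and either serous line, although the serous lines differed from each other for CDH1.

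The keratins did not behave alike. KRT19 was read at 0.164, 0.237 and 0 CPM in CP70, 555, 613 and 583 CPM in PEA2 and 1390, 1480 and 1550 CPM in PEO4. From 2 reads in CP70, the ratio was 4170 against PEA2 (95% counting interval 1150 to 34400) and 10400 against PEO4 (2870 to 85600). KRT7 was also close to unread in CP70 (0, 0.474 and 0 CPM), against 1050, 1130 and 1010 CPM in PEA2 and 374, 302 and 409 CPM in PEO4. KRT8 and KRT18, the partners of the simple-epithelial filament, were lower in CP70 but still transcribed. KRT8 stood at 13.4, 13.8 and 11 CPM in CP70, 617, 674 and 743 CPM in PEA2 and 741, 643 and 797 CPM in PEO4, a log2FC of -5.77 (SE 0.32, limma FDR 2.15e-12). KRT18 differed least, with 66.7, 60.9 and 63.6 CPM in CP70 and 263 to 425 CPM over the serous libraries (log2FC -2.4, SE 0.13). Both have many processed pseudogenes, with which reads can be shared. EPCAM, an epithelial adhesion molecule, had 15.6, 14 and 17.9 CPM in CP70, 341, 465 and 351 CPM in PEA2 and 484, 470 and 497 CPM in PEO4, and was 27.1-fold lower on average (log2FC -4.76, SE 0.15, limma FDR 3.95e-16).

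Factors that maintain the epithelial state were lower in CP70 too. Among 16 measured regulators, 13 were shared differences lower in CP70 and none was higher (median log2FC -5.32). GRHL2, a transcription factor of epithelial genes, had no reads in CP70, 48.5, 51.2 and 36.6 CPM in PEA2 and 122, 133 and 131 CPM in PEO4. ESRP1, which directs epithelial splicing, had 1 read in CP70 and 352, 340 and 304 CPM in PEA2 and 411, 430 and 416 CPM in PEO4. KLF5, a zinc finger factor of proliferating epithelium, was present at low level in CP70 (0.819, 1.19 and 1.05 CPM) and was 92.5-fold lower than in PEA2 and 143-fold lower than in PEO4. The repressor ZEB1 (chr10:31607424-31818742) lay on the other side, with 34.4, 30.1 and 39.2 CPM in CP70, 0, 0.288 and 0 CPM in PEA2 and no reads in PEO4. It was 259-fold higher than in PEA2 as a ratio to 1 read (interval 46.3 to 10300) and at least 95.8-fold higher than in PEO4 (limma FDR 1.43e-13).

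Because ZEB1 binds the E-box CACCTG, or CAGGTG on the other strand, these 6 letters were looked for in promoters, taken as 250 bases before to 50 bases after the gene start in RefSeq (GRCh38.p14). Of the 46 epithelial genes lower in CP70, 22 had a promoter in the table used, and 9 of these (40.9%) held the E-box. It was held by 20.6% of all 27305 promoters and by 18% of the 8983 tested genes that had one. Over all shared differences the share was 23.8% for genes lower and 22.6% for genes higher in CP70. The promoters of 4 genes show the range, written 5′ to 3′ on the gene's strand with each E-box in capitals. CRB3, which encodes the polarity protein Crumbs3, held 5 E-boxes (chr19:6464021-6464320, plus strand). AP1M2, a subunit of the epithelial AP-1B sorting complex, held 3 (chr19:10587263-10587562, minus strand), RAB25, an epithelial GTPase, held 2 (chr1:156060910-156061209, plus strand), and KRT8 held none (chr12:52926420-52926719, minus strand). These 4 promoters were chosen for printing after the values of the genes were seen, although KRT8 was also one of the defining genes. The KRT8 window was taken at the gene start listed in RefSeq. Other possible starts of KRT8 were not searched, so the lack of E-boxes applies to that window only.
CRB3: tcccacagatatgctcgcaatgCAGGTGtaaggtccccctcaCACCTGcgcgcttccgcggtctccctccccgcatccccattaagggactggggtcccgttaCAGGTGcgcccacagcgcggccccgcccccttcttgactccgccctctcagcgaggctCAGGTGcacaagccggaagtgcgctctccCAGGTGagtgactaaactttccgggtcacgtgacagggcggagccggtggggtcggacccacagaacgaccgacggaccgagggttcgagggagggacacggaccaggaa
AP1M2: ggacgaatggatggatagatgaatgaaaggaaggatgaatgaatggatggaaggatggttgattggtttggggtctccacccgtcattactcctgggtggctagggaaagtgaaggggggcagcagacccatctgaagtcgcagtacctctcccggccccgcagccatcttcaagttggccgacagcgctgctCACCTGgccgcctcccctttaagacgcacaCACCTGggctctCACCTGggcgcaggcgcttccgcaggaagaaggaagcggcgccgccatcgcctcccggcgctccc
RAB25: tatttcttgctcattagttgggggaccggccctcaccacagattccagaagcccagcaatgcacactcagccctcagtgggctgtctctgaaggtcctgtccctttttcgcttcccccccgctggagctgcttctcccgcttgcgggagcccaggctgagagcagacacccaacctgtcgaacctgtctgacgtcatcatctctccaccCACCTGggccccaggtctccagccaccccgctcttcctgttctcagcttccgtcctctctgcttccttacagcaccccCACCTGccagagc
KRT8: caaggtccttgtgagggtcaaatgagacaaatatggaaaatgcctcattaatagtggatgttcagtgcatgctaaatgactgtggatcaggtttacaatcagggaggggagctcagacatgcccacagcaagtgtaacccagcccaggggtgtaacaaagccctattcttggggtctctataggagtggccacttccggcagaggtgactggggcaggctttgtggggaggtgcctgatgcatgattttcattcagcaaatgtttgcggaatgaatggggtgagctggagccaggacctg
CRB3 was read at 0.164, 0 and 0 CPM in CP70, 12.8, 19.9 and 26.1 CPM in PEA2 and 5.88, 5.34 and 4.06 CPM in PEO4. RAB25 was read at 0, 0.237 and 0 CPM in CP70, 42.7, 43.5 and 44.4 CPM in PEA2 and 73.4, 78.4 and 90.9 CPM in PEO4. AP1M2 had 17.2, 17.5 and 13.9 CPM in CP70 and differed less, being 4.44-fold lower than in PEA2 and 13.4-fold lower than in PEO4. The log2FC was -5.99 for CRB3, -2.95 for AP1M2 and -5.77 for KRT8. Whether the number of E-boxes follows the size of the difference was not tested over the epithelial promoters. A match of letters does not show that a factor binds there.

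Müllerian and serous lineage genes were lower in CP70 as a group. Of 22 measured genes, 16 were shared differences lower in CP70 and none was higher (median log2FC -5.65, or -4.92 with unread genes at their bound), and 13 remained without comparisons in which both lines had at most 3 reads. PAX8 (chr2:113973574-114036498), the Müllerian lineage factor, was read at 0.164, 0.237 and 0 CPM in CP70, 290, 367 and 315 CPM in PEA2 and 256, 249 and 238 CPM in PEO4. This gave ratios of 2350 (interval 650 to 19400) and 1750 (485 to 14500). PAX8 was similar in the 2 serous lines, whereas WT1 and MUC16 were not. WT1, a transcription factor of serous tumours and mesothelium, had no reads in CP70, 6.93, 4.89 and 11.4 CPM in PEA2 and 222, 242 and 271 CPM in PEO4. MUC16 had 0.164, 0.948 and 0 CPM in CP70, 112, 166 and 171 CPM in PEA2 and 2040, 3820 and 2100 CPM in PEO4. MSLN, the MUC16 ligand mesothelin, was 290-fold lower than in PEA2 (interval 79.5 to 2400) and 2240-fold lower than in PEO4 (619 to 18500). WFDC2 (the HE4 antigen) had no reads in CP70 and was at least 297-fold and at least 542-fold lower.

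Basement membrane and integrin genes were mostly lower where they differed. Of 33 measured genes of basement membrane and integrins, 14 were shared differences lower and 2 higher in CP70 (median log2FC -2.59). Laminin chains of epithelial basement membrane were among those lower. LAMB3 was read at 0, 0.474 and 0 CPM in CP70, 1370, 1450 and 1370 CPM in PEA2 and 103, 87.1 and 116 CPM in PEO4. LAMA3 had 0.711 to 1.8 CPM in CP70 against 2340, 3260 and 2680 CPM in PEA2 and 458, 408 and 435 CPM in PEO4 (log2FC -9.79, SE 0.19). The integrin chain ITGB4, part of the laminin receptor of hemidesmosomes, was 189-fold lower than in PEA2 and 246-fold lower than in PEO4. ITGA3 stood at 5.24, 5.92 and 5.79 CPM in CP70 and at 1200 to 1680 CPM over the 6 serous libraries (log2FC -7.95, SE 0.079, limma FDR 1.04e-23). ITGB8 was 1770-fold and 258-fold lower. In contrast, LAMA2 (log2FC 2.86) and ITGAV (log2FC 2.33), which are not restricted to epithelium, were the 2 members higher in CP70.

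Mesenchymal genes did not form one group. Of 24 measured, 6 were higher and 7 lower in CP70 (median log2FC 0.276). VIM, the intermediate filament vimentin (chr10:17270240-17279592), had 2770, 2940 and 2940 CPM in CP70, 117, 116 and 107 CPM in PEA2 and 39.5, 40 and 44.6 CPM in PEO4, and was 42-fold higher (log2FC 5.39, SE 0.11, limma FDR 8e-19). TAGLN, an actin-binding protein of contractile cells, was 66.9-fold higher than in PEA2 and 28.1-fold higher than in PEO4. COL3A1 had 952, 816 and 849 CPM in CP70, none in PEA2 and 66.8, 63.1 and 63.3 CPM in PEO4. CDH2 (N-cadherin) was 35.4, 36.3 and 42.3 CPM in CP70, between PEA2 (59.2 to 93.3 CPM) and PEO4 (1 to 1.62 CPM), so the serous lines lay on opposite sides of it. The log2FC of 1.86 was short of the threshold, which it passed with quantile normalization and with plain CPM. FN1, the matrix protein fibronectin, was lower in CP70 at 11.6, 17.8 and 6.84 CPM, against 38400, 48700 and 37600 CPM in PEA2 and 117, 124 and 114 CPM in PEO4. MMP2, a matrix protease, was lower too, from 1 read in CP70. Of the 8 fibroblast genes measured, 4 (POSTN, DCN, LUM and COL3A1) were shared differences higher in CP70, and COL1A1 differed little (log2FC -0.07).

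**Figure D2:**
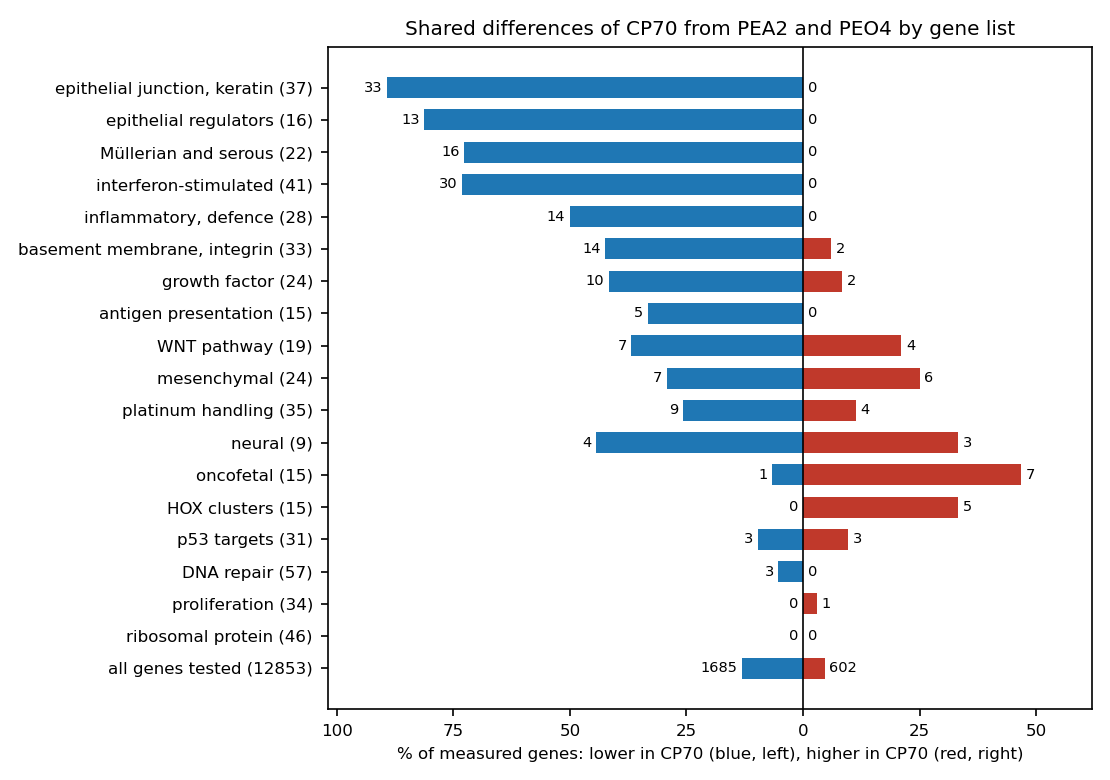
Percent of the measured genes of each list that were shared differences lower in CP70 (blue, to the left) or higher in CP70 (red, to the right), with the number of genes beside each bar and the number measured in brackets. All genes tested are at the bottom with 1685 lower and 602 higher, and the epithelial, Müllerian and interferon lists have no gene on the red side.

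The genes highest in CP70 relative to both serous lines came from several pathways. ALDH1A1, a retinaldehyde dehydrogenase (chr9:75515587-75695358), had 1050, 1080 and 1070 CPM in CP70, none in PEA2 and 0, 0 and 0.406 CPM in PEO4. It was at least 2680-fold higher than in PEA2 and 8910-fold higher than in PEO4 by a ratio to 1 read (interval 1600 to 352000). POSTN, the matrix protein periostin, had 446, 491 and 497 CPM in CP70 and 1 read in each serous line. HGF, the ligand of the MET receptor (chr7:81328326-81399754), had 155, 168 and 164 CPM in CP70 and no reads in the serous lines, at least 406-fold and at least 450-fold higher. MET itself was lower in CP70 at 8.52, 9.48 and 8.15 CPM, against 1800, 1790 and 2070 CPM in PEA2 and 657, 596 and 631 CPM in PEO4. The ligand and its receptor were thus on opposite sides of the comparison. CCND2 (cyclin D2) had 1750, 1820 and 1880 CPM in CP70, 2.13, 6.62 and 3.66 CPM in PEA2 and 0.346, 0.334 and 0 CPM in PEO4. CDK6, a kinase partner of the D-type cyclins, was 163-fold lower than in PEA2 and 232-fold lower than in PEO4. NEFH (a neurofilament chain), TBX2 (a T-box repressor), EPHA5 (an ephrin receptor), SCG2 (secretogranin), COL5A2 (a fibrillar collagen chain) and MUC15 (a membrane mucin) made up the rest of the 10 genes furthest above both lines.

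Oncofetal genes were among the few groups that leaned towards CP70, and HOX genes did so mainly against PEO4. Of 15 measured oncofetal and stem cell genes, 7 were shared differences higher and 1 lower (median log2FC 1.04), and after quantile normalization none was lower. IGF2BP1, an RNA-binding protein of embryonic tissue, had 393, 387 and 393 CPM in CP70, 5.87, 4.03 and 3.66 CPM in PEA2 and 0.346, 0 and 0.406 CPM in PEO4. LIN28B, which blocks let-7 maturation, had 85.2, 104 and 101 CPM in CP70, 8.54, 9.5 and 10.1 CPM in PEA2 and 3.11, 3 and 0.811 CPM in PEO4. SALL4, a pluripotency factor, was 72-fold and 34.8-fold higher, and the imprinted RNA H19 was at least 405-fold higher than in PEA2 and 108-fold higher than in PEO4. HMGA2, a let-7 target, was higher mainly against PEO4 (18.1-fold, and 1.82-fold against PEA2). The member lower in CP70 was PROM1, unread in CP70, which encodes the surface protein CD133. Of 15 HOX genes in the table, which give cells their position along the body axis, 5 (33.3%) were higher and none lower. Over all genes 4.68% were higher and 13.1% lower. Their median log2FC was -0.134 against PEA2 and 4.51 against PEO4. For A2780 against PEA1 and PEO1 the median was -2.02, with 4 HOX genes called higher and 8 lower in A2780. HOXC10 had 39.8, 42.2 and 46.3 CPM in CP70 and no reads in either serous line, and HOXC6, HOXC8, HOXC9 and HOXB5 were the others. Of 9 neural genes, 3 were higher (SCG2, NLGN1 and INA) and 4 lower (NCAM1, L1CAM, SYT1 and DPYSL3), so no direction held for that list. Of 4 cancer-germline genes, TEX15 was higher in CP70 (208, 234 and 243 CPM, 21-fold and 80.3-fold) and MAGED4 and XAGE2 lower, the last 2 with close copies and XAGE2 with 2 reads in PEA2.

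Interferon-stimulated genes were lower in CP70 as a rule. Of 41 measured, 30 were shared differences lower and none was higher, with a median log2FC of -2.99. SAMD9, an antiviral factor, had no reads in CP70, 54.9, 65.6 and 63.6 CPM in PEA2 and 394, 379 and 352 CPM in PEO4. OAS1, a sensor of double-stranded RNA, had no reads in CP70, 18.1, 26.5 and 14.2 CPM in PEA2 and 111, 90.4 and 110 CPM in PEO4. IFI27 was 278-fold lower than in PEA2 (interval 94.5 to 1350) and 1930-fold lower than in PEO4 (661 to 9380). The list was not lower throughout, since IFIT5 (log2FC 0.17) and GBP1 (0.12) lay slightly above 0 without being called.

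Antigen presentation differed less than the interferon list. Of 15 measured genes, 5 were shared differences lower and none higher (median log2FC -1.39). HLA-B, a class I heavy chain, was present in CP70 at 35.5, 27.7 and 31 CPM and was 5.74-fold and 6.26-fold lower. HLA genes vary between people and resemble each other, so reads of one may be lost or counted for another. B2M, the light chain of class I, had 162, 164 and 166 CPM in CP70, 548, 560 and 608 CPM in PEA2 and 704, 715 and 690 CPM in PEO4. Its log2FC of -1.95 (SE 0.06) lay just short of the threshold. PSMB8, an immunoproteasome subunit, had 1 read in CP70 and 39.7 to 70.2 CPM over the serous libraries. CD74, the class II chaperone, was 98.1-fold lower than in PEA2 and 7.48-fold lower than in PEO4.

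Genes of inflammation and epithelial defence were also lower. Of 28 measured, 14 were shared differences lower and none higher (median log2FC -5.28, or -5.22 with unread genes at their bound), and quantile normalization left 8. LCN2 (lipocalin-2), which withholds iron from bacteria, had no reads in CP70, 1140, 1430 and 1420 CPM in PEA2 and 165, 202 and 175 CPM in PEO4. SLPI, a secreted protease inhibitor, had none in CP70, 208, 338 and 208 CPM in PEA2 and 106, 130 and 161 CPM in PEO4. TNFAIP2, induced by TNF, was still present in CP70 (4.26, 1.9 and 4.47 CPM) and was 139-fold and 105-fold lower. ICAM1, a leukocyte adhesion ligand, was 93.3-fold and 66.8-fold lower. The median over the list was further from 0 against PEA2 (-8.39) than against PEO4 (-1.31).

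**Figure D3:**
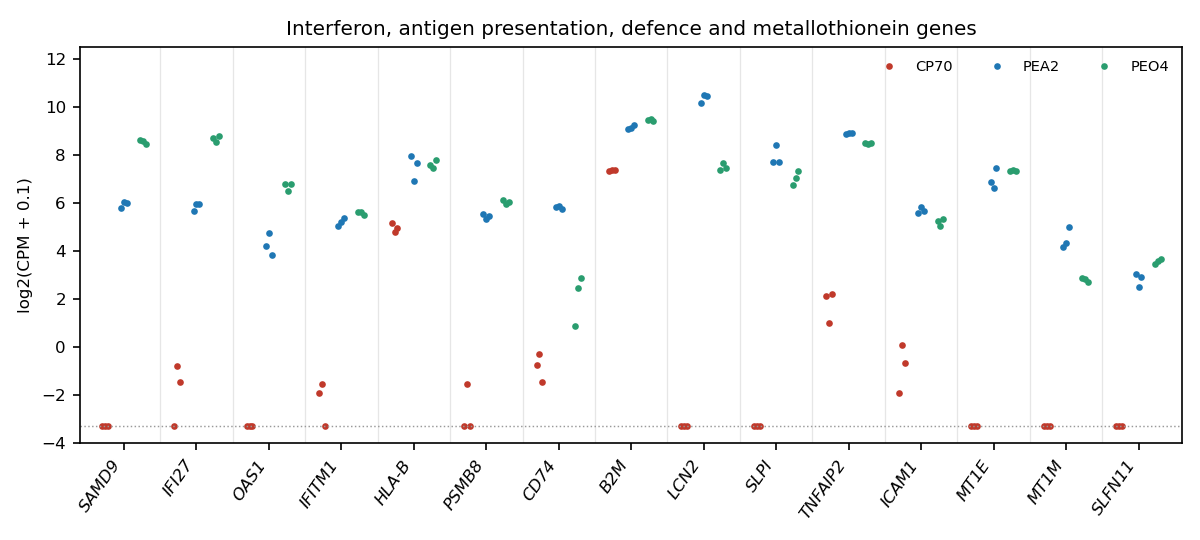
Level of 15 genes of interferon response, antigen presentation, defence and platinum response in each library of CP70, PEA2 and PEO4, as log2(CPM + 0.1). Each point is 1 library, and points on the dotted line had no reads. By log2FC B2M differs least (-1.95), with CP70 at 162 to 166 CPM and PEA2 at 548 to 608 CPM.

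Growth factor genes were mostly lower among ligands of the EGF receptor family. Of 24 measured growth factors and receptors, 10 (41.7%) were lower and 2 (8.33%) higher (HGF and FGFR1). The shares over all genes were 13.1% and 4.68%, and the median log2FC of the list was -2.08. TGFA had 0.164, 0 and 0 CPM in CP70, 121, 163 and 135 CPM in PEA2 and 135, 107 and 134 CPM in PEO4. EREG (epiregulin) had 0.655, 0.948 and 0 CPM in CP70, 1840, 1330 and 1390 CPM in PEA2 and 24.6, 23.7 and 23.1 CPM in PEO4. AREG, BTC and NRG1, which encode further ligands of the family, were shared differences lower as well. EGFR, the receptor of TGFA, EREG and AREG, had 44.4, 52.1 and 52.9 CPM in CP70, 589, 590 and 656 CPM in PEA2 and 95.2, 99.4 and 84.8 CPM in PEO4. It was 12.3-fold lower than in PEA2 and 1.87-fold lower than in PEO4 (log2FC -2.26, SE 0.19), and the call was lost with plain CPM. In the WNT pathway, 7 of 19 genes (36.8%) were lower and 4 (21.1%) higher (median log2FC -1.08). The ligands WNT7A and WNT7B and the secreted DKK3 were lower, DKK3 with 1 read in CP70 against 180 to 203 CPM in PEA2 and 56 to 67.5 CPM in PEO4. TNFRSF19, a WNT-responsive receptor, was higher at 199, 212 and 215 CPM in CP70, against 0.457 to 2.02 CPM in PEA2 and no reads in PEO4. THBS1, an adhesive glycoprotein of the matrix, was 28.2-fold and 7.5-fold lower in CP70.

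Among genes linked to platinum handling there was no common direction. Of 35 measured, 9 (25.7%) were shared differences lower and 4 (11.4%) higher, against 13.1% and 4.68% of all genes. The median log2FC was -0.333, and quantile normalization gave 6 lower and 7 higher. Of 6 measured metallothioneins, small proteins that bind metal ions, 5 were lower, and MT1X was not called (log2FC -1.11). MT1E had no reads in CP70, 117, 97.6 and 173 CPM in PEA2 and 163, 164 and 162 CPM in PEO4, and MT1M, MT1F, MT1G and MT2A were the others. Metallothionein genes are close copies, so their reads may be split among them. MGST1, a microsomal glutathione transferase outside that list (chr12:16500076-16762193), had no reads in CP70, 194, 167 and 183 CPM in PEA2 and 206, 194 and 203 CPM in PEO4. It was at least 840-fold and at least 945-fold lower (limma FDR 1.3e-21). GSTM1, another glutathione transferase with close copies, was higher in CP70 at 20, 12.6 and 20.2 CPM, against at most 1 read in any serous library. The copper and platinum transporters SLC31A1 (log2FC 0.80), ATP7A (-0.63) and ATP7B (1.66) were not called.

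Few DNA repair genes were shared differences. Of 57 measured, 3 (5.26%) were lower and none higher, against 13.1% and 4.68% of all genes. The median log2FC was -0.0851, and quantile normalization gave 2 lower and 2 higher. SLFN11, which blocks stressed replication forks, had no reads in CP70 and 5.47 to 12.6 CPM over the serous libraries, at least 31.2-fold and at least 54.7-fold lower. ERCC6 of transcription-coupled repair was lower as well (log2FC -2.12, SE 0.22), and its call was lost with quantile normalization and with plain CPM. Of 31 p53 targets, 3 (9.68%) were lower (PLK2, CYFIP2 and PERP) and 3 (9.68%) higher (AEN, BTG2 and CPT1C). CDKN1A, the p53-induced cell cycle inhibitor, had 3.93, 4.27 and 3.15 CPM in CP70, 27.7, 17.6 and 27 CPM in PEA2 and 10, 6.34 and 2.84 CPM in PEO4. It was not called (log2FC -1.61, SE 0.31), and CP70 overlapped PEO4. MDM2 was not called either (log2FC 0.52). Of 34 proliferation genes only TYMS, the thymidylate synthase targeted by fluorouracil, was a shared difference, at 157, 159 and 144 CPM in CP70 and 32 to 42.9 CPM over the serous libraries. Its log2FC of 2.01 (SE 0.1) lay at the threshold, and leaving out CP70 replicate 1, CP70 replicate 2, PEA2 replicate 3 or PEO4 replicate 2 took it below. None of 46 ribosomal protein genes was a shared difference.

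Not every called gene was shared. Of the 2667 called genes, 380 failed the rule, and in 20 of them the serous lines lay on opposite sides of CP70, both past the FDR. COL4A2, a collagen chain of basement membrane, was such a gene, at 2.8 CPM in CP70, 739 CPM in PEA2 and 1.13 CPM in PEO4. FAT1, a giant cadherin, had 118 CPM in CP70, 0.192 CPM in PEA2 and 741 CPM in PEO4, and the tumour antigen PRAME had 33.7 CPM in CP70, 78 CPM in PEA2 and none in PEO4. These 3 genes were chosen after their values were seen.

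The same comparison was then made among the sensitive lines, A2780 against PEA1 and PEO1, whose log2FC comes from other libraries. Both comparisons share 1 estimate of the spread, from 18 libraries. It called 2755 genes (21.4%), and 2374 genes (18.5%) were shared differences by the same rule. Of the 2287 shared differences among resistant lines, 1590 (69.5%) were called on the same side among the sensitive lines, 313 of them higher and 1277 lower. At the FDR alone 1980 (86.6%) were on the same side, 116 on the other, and 191 did not pass. The 1424 genes that were shared differences on the same side in both comparisons made up 62.3% of the resistant and 60.0% of the sensitive list. Most differences of CP70 from the serous lines were thus also differences of its parent line from their sensitive counterparts. PAX8 was an example, with no reads in A2780 and a mean of 330 CPM in PEA1 and 158 CPM in PEO1. HGF (752 CPM in A2780), CCND2 (3050 CPM) and IGF2BP1 (530 CPM) were examples on the higher side.

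Whether a difference was larger or smaller among the resistant lines was tested by the difference of the 2 comparisons. Over all genes, 6536 (50.9%) passed the FDR in this test, and 1806 (14.1%) were also past 2 on the log2 scale. Among the 2287 shared differences, 1064 were larger and 378 smaller among the resistant lines, and 845 did not pass. The genes were selected for a large difference among the resistant lines, which favours larger over smaller in this count. For genes with few or no reads in a line, the fitted value depends on the 0.5 reads added and is not a bound. The test also rests on single pairs. Larger differences, past 2 on the log2 scale, numbered 912 when only the PEA lines served as serous reference and 555 with only the PEO lines, and 356 were larger with both.

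The epithelial genes show this dependence. The 9 epithelial markers summed to 155 to 203 CPM in PEA1 and 5080 to 5260 CPM in PEO1, so PEA1 held far less than PEA2. KRT19 was at 0.335 CPM in A2780, 1.05 CPM in PEA1 and 1100 CPM in PEO1. Its difference of differences was -9.58 with the PEA lines (limma FDR 1.96e-10) and -1.22 with the PEO lines (limma FDR 0.129). ESRP1 (-9.98 and -0.35) and CDH1 (-9.84 and 0.06) gave the same picture, whereas PAX8 was close to 0 with both (0.52 and -0.15). On the side higher in CP70, ZEB1 (7.78 with the PEA and 0.6 with the PEO lines) and VIM (4.92 and -1.26) depended on the pair too. KRT18, KRT8 and EPCAM stood at 0.985, 0.321 and 1.01 CPM in A2780. For KRT18 and KRT8 the differences were smaller among the resistant lines with either pair (difference of differences 4.78 and 3.74, each past the FDR). EPCAM gave 1.24, also past the FDR, but depended on the pair. Its value was -0.82 with the PEA lines (limma FDR 0.00783) and 3.31 with the PEO lines (limma FDR 1.35e-09).

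**Figure D4:**
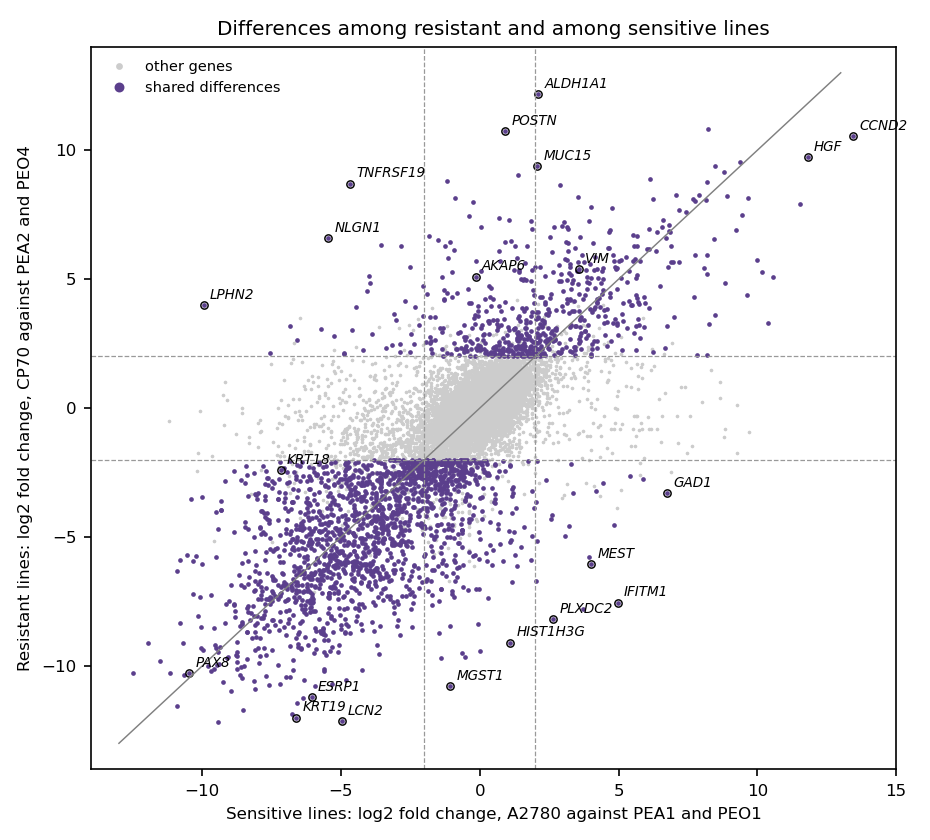
Log2 fold change of each of 12853 genes among the resistant lines (CP70 against PEA2 and PEO4, vertical) and among the sensitive lines (A2780 against PEA1 and PEO1, horizontal), with shared differences in purple, other genes in grey, dashed lines at 2 and -2 and a diagonal of equal change. Most purple points lie in the lower left and upper right, and LPHN2, TNFRSF19, IFITM1 and MEST lie on opposite sides in the 2 comparisons.

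Some of the largest differences of CP70 were absent or far smaller in A2780. ALDH1A1 averaged 0.805 CPM in A2780 and had no reads in PEA1 or PEO1. It was called among the sensitive lines too (log2FC 2.1, limma FDR 0.000282), from 7 reads in A2780. Its difference of differences was 10.08 (limma FDR 6.95e-11). POSTN (0.384 CPM in A2780), SCG2 (1.07 CPM) and MUC15 (2.95 CPM) were likewise low in the parent line. MGST1 went the other way, at 56.6 CPM in A2780, 78.3 CPM in PEA1 and 182 CPM in PEO1 while CP70 had no reads (difference of differences -9.71, limma FDR 1.19e-17). CDKN1A, not called among the resistant lines, averaged 86.6 CPM in A2780, 11.9 CPM in PEA1 and 2.34 CPM in PEO1. Its log2FC among the sensitive lines was 4.02, and its difference of differences was -5.63 (limma FDR 2.36e-09). In 56 genes the comparison among sensitive lines was called on the opposite side, 34 of them higher and 22 lower in CP70. IFITM1, an interferon-induced membrane protein, had 16.6 CPM in A2780, 0.575 CPM in PEA1 and 0.36 CPM in PEO1, but 0.164, 0.237 and 0 CPM in CP70 and 32.5 to 49 CPM over PEA2 and PEO4. LPHN2, an adhesion receptor, had 128, 136 and 139 CPM in CP70, 3.2 to 4.57 CPM in PEA2 and 14.7 to 21.5 CPM in PEO4, whereas A2780 was at 0.086 CPM, PEA1 at 193 CPM and PEO1 at 264 CPM. For these 2 genes both the CP70 and the serous lines differed from their sensitive counterparts, in opposite directions.

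**Figure D5:**
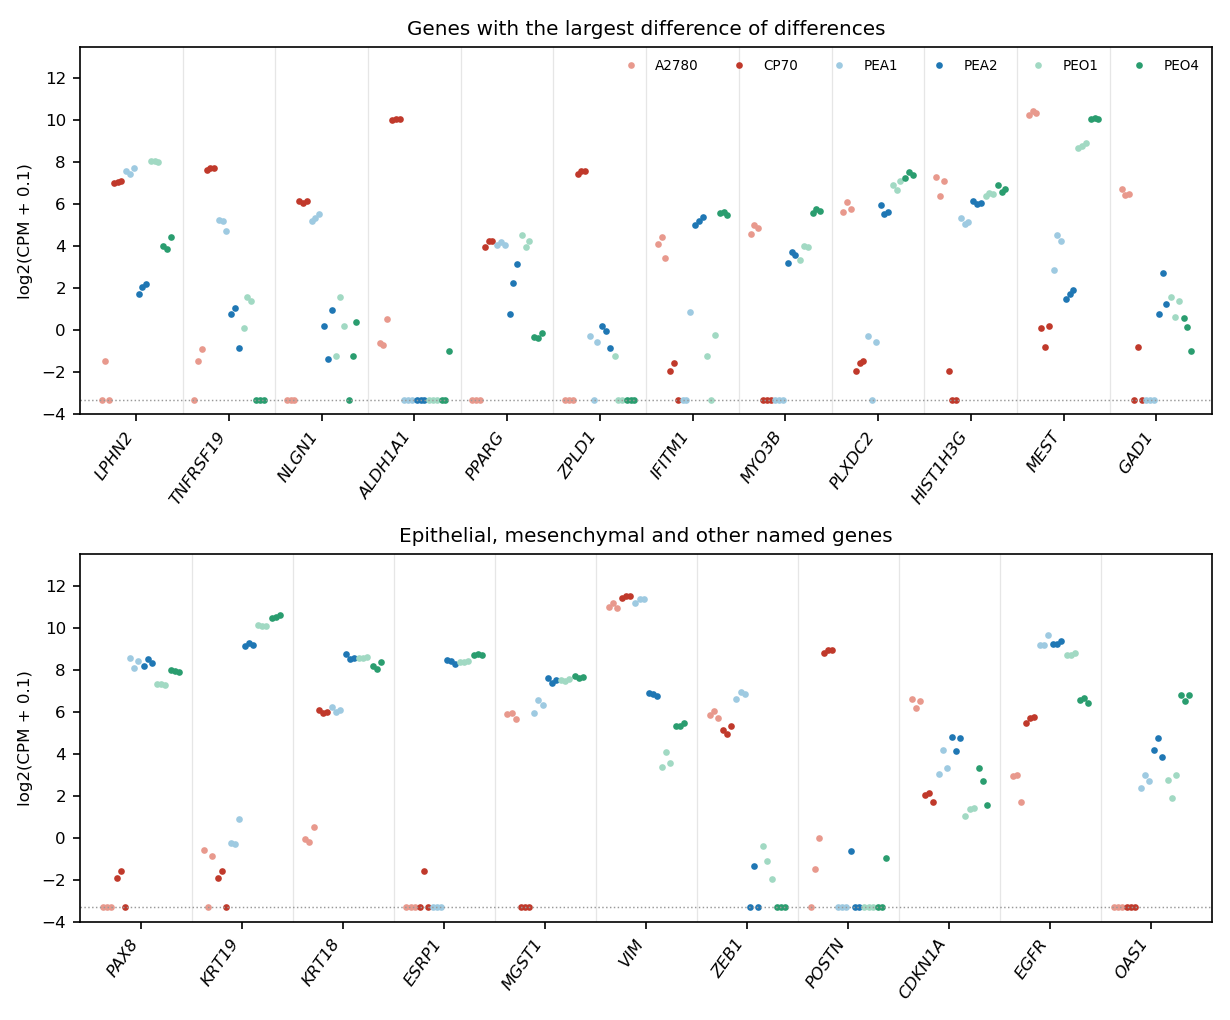
Level of 23 genes in each library of the 6 lines, as log2(CPM + 0.1), with the 12 shared differences that changed most between the 2 comparisons above and other named genes below. Each point is 1 library, sensitive lines are in pale and resistant lines in full colour, and points on the dotted line had no reads. ALDH1A1 is high in CP70 alone, and MGST1 is unread in CP70 alone.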

How the data were processed

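RNA-seq of 18 libraries, 3 from each of 6 lines, was analysed as 1 deposited table of log2 CPM values for 12853 genes. Per the labels and the paper, the authors aligned reads to hg19 with Bowtie2, counted genes with featureCounts and normalized with limma, adding 0.5 reads to each count. The strand setting of the counting is not given in the sources used here, and 67 of 118 genes named by the rule overlap a gene on the other strand (2 had no annotation). Whole reads were recovered from 100% of values (tolerance 0.01).

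The log2 values were fitted in limma 3.58.1 (R 4.3.3) with a mean per line and a variance trend, in 1 fit of 18 libraries, with FDR by Benjamini-Hochberg. Calls needed |log2FC| above 2 and FDR below 0.05. Replicate numbers did not pair the libraries. The calculations were tested on simulated data. Folds against a line with no reads were taken against 3 reads over its 3 libraries, and those against 1 to 3 reads carry an exact 95% counting interval.

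The members and lists were chosen with earlier results of these data known. Named genes were the 10 furthest from both serous lines in each direction, 6 in each direction among genes with more than 3 reads in every library, 4 per list, defining genes, and the 6 in each direction that differed most from the sensitive lines. A few genes named by the rule are not reported here. Coordinates are from GENCODE release 44 on hg19, and promoters from RefSeq. Alternatives were other normalizations, filters, fold thresholds, weights, a replicate block, fewer libraries, and lines as samples.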

Additional observations from a re-analysis of the deposited data

Results flagged for a closer look

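The 12 shared differences below differed most between the 2 comparisons. Each value is the difference of differences on the log2 scale, CP70 against PEA2 and PEO4 less A2780 against PEA1 and PEO1, tested in limma, and each had the same sign when the PEA lines or the PEO lines alone served as reference. Where a line had few or no reads, the value depends on the 0.5 reads added and is not a bound.

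In 6 genes CP70 stood higher relative to the serous lines than A2780 did. LPHN2 had a difference of 13.93, TNFRSF19 of 13.36 and NLGN1, a synaptic adhesion protein, of 12.07. A2780 had at most 0.235 CPM of these 3, and PEA1 had 193, 33.5 and 41.6 CPM. ALDH1A1 differed by 10.08, PPARG, a nuclear receptor of lipid metabolism, by 10.04, and ZPLD1 by 9.98. ZPLD1 had no reads in A2780 and 176, 192 and 191 CPM in CP70. PPARG was at 0 CPM in A2780 and 17.9 CPM in CP70, close to 17.3 CPM in PEA1 and 19.2 CPM in PEO1. In the resistant serous lines PPARG was at 1.6 to 8.69 CPM (PEA2) and 0.667 to 0.811 CPM (PEO4).

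In the other 6, CP70 stood lower. IFITM1 had a difference of -12.51, MYO3B, a myosin, of -11.53, and PLXDC2, a membrane receptor, of -10.82. HIST1H3G, a histone H3 gene with near-identical copies, differed by -10.2, with 127 CPM in A2780 and 1 read in CP70. MEST, an imprinted gene, differed by -10.07, with 1320 CPM in A2780 and 0.474 to 1.05 CPM in CP70, and was close to the PEA2 level of 2.67 to 3.66 CPM. GAD1, which makes the transmitter GABA, differed by -10.02, and its level in the resistant lines was low throughout, at 6.62 CPM or less in each library. That call among the resistant lines was lost after quantile normalization (log2FC -0.95, FDR 0.114).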

How the results depend on the processing

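In the comparison of CP70 with the serous lines, no called named gene changed direction under the alternatives that were run. The difference of differences did change side between the PEA and the PEO lines for some named genes, such as KRT7, FN1 and EPCAM. Quantile normalization gave 1079 called and 917 shared genes higher in CP70. With |log2FC| above 1, 2036 genes were called higher and 3156 lower, 1605 and 2552 were shared, and the difference of differences passed in 2044 genes upward and 1786 downward. Limma's treat with a 4-fold bound left 421 called and 391 shared genes higher. With each line as 1 sample, 1 gene was higher and 85 lower, both called and shared, 1275 genes passed an unadjusted p below 0.05, and 30 of 117 called named genes still passed. In that setting only 3 samples enter each comparison. With the PEA lines alone as reference, a setting chosen after seeing the data, 1286 differences of differences were downward, against 799. Leaving out each of the 9 libraries in turn gave 687 to 710 and 1945 to 1974 called genes, 560 to 596 and 1617 to 1692 shared genes, and 992 to 1021 and 794 to 825 differences of differences. Of the named genes, TYMS lost its call with 2 reads added and with voom weights, ERCC6, GAD1 and XAGE2 with quantile normalization, EGFR and ERCC6 with plain CPM, and 7 genes with treat, while CDH2 gained one with either scaling. With quantile normalization the balance of several lists changed: platinum-handling genes to 7 higher and 6 lower, mesenchymal to 8 and 6, neural to 3 and 2, p53 targets to 5 and 3, endothelial to 1 and 0, WNT to 4 and 4, repair to 2 and 2, cancer-germline to 1 and 1, and leukocyte to 0 and 0. Plain CPM gave 1 higher and 2 lower repair genes, 1 higher and 1 lower endothelial gene and 6 higher and 6 lower mesenchymal genes. The causes were not tested. The replicate block gave 703 and 1964 called, 599 and 1675 shared genes, and 1007 and 801 differences of differences. It changed no call of a named gene. Same-numbered libraries correlated between -0.043 and 0.0344, so they share only a number. The other alternatives (9 libraries alone, mean log2 above 0, no trend, comparisons of 2 lines with at most 3 reads each left out) stayed within 1.5 times. The depth does not show expression under 0.212 CPM in CP70, and 430 lower genes had no reads there.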

Other observations

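Several genes furthest from the serous lines belong to none of the lists. MAL, a raft protein of apical transport, had no reads in CP70, 308, 398 and 299 CPM in PEA2 and 522, 462 and 524 CPM in PEO4. The long noncoding RNA UCA1 was read at 0.328, 0.474 and 0.263 CPM in CP70, 625, 881 and 708 CPM in PEA2 and 898, 826 and 858 CPM in PEO4. It had no reads in A2780 or PEA1 and 289 CPM in PEO1, so it was high in 3 of the 4 serous lines. ARHGAP29, a GTPase-activating protein, stood at 1.64, 1.66 and 2.1 CPM in CP70 and at 865 to 1260 CPM over the serous libraries. Among 288 long noncoding RNA genes, 70 (24.3%) were shared differences lower and 20 (6.94%) higher in CP70, against 13.1% and 4.68% of all genes.

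On the higher side, E2F2, a cell cycle transcription factor, had 105, 95.8 and 99.9 CPM in CP70 and 3.73 to 7.32 CPM over the serous libraries. FAM171B had 782, 841 and 863 CPM in CP70, 5.33 to 7.32 CPM in PEA2 and 29.8 to 30.4 CPM in PEO4. CNTNAP1, a neuronal adhesion protein, was 18.3-fold and 21.4-fold higher. AKAP6, an anchor of protein kinase A, had 138, 143 and 154 CPM in CP70 and 2.03 to 6.4 CPM over the serous libraries, with 2.14 CPM in A2780, so that its level in CP70 was not present in the parent line.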
